A study of Mus musculus with 14 samples.

Results

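Expression of 10 genes of the Notch pathway was followed across 14 Affymetrix mouse arrays of cells sorted from bone marrow: the receptors Notch1, Notch2, Notch3 and Notch4, the ligands Jag1, Jag2, Dll1 and Dll4, and the target genes Hey1 and Heyl. They were found as the probe sets whose symbol in the platform annotation is exactly one of these names, which gave 21 of the 45101 probe sets on the array. Osteoblasts were GFP+ and CD45-, ter119- and CD31-; the donor strain was pOBcol2.3-GFP, whose GFP transgene is driven by part of the Col1a1 promoter in the osteoblast lineage. Endothelial cells were CD31+ and CD45-, ter119- and GFP-, so each population was defined by its sort gate. All mice were wild type C57BL/6J animals aged 6 to 8 weeks that carried the reporter. Untreated mice (3 osteoblast and 4 endothelial arrays) were compared with mice given 250 ug/kg of G-CSF under the skin (3 and 4 arrays), the cytokine that drives neutrophil production and moves blood stem cells out of the marrow. The G-CSF arrays are titled as 5 days of treatment, whereas untreated arrays carry a protocol text with 7 days or vehicle alone. No label says that replicates are separate mice, so the p-values measure only the spread between these samples, which may be technical.

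Notch receptors are single-pass membrane proteins that are activated by ligands on a neighbouring cell. Ligand binding leads ADAM proteases and then gamma-secretase to cut the receptor, and the released intracellular domain enters the nucleus and joins RBPJ on DNA to switch on targets of the Hes and Hey families, which encode transcriptional repressors. In vessels, Dll4 and Notch1 act in tip cell selection and arterial fate, Notch4 is largely an endothelial receptor, and Notch3 is the receptor typical of mural cells, the pericytes and smooth muscle cells that wrap vessels. In bone, Notch2 and Jag1 are the pair best known for effects on osteoblast lineage cells and bone mass.

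The sorts were checked against markers. All 10 endothelial markers were lower in the untreated osteoblast sort than in the endothelial sort; the mean log2 level of the list was 8.54 to 9.05 over the osteoblast arrays and 12.55 to 13.02 over the endothelial arrays, and Cdh5, the VE-cadherin gene, differed 33.7-fold. Bone genes separated the untreated sorts less well. All 7 measured osteoblast markers had a higher mean in the osteoblast sort. Of these, 1 was called higher (limma, adjusted p under 0.05), as were 14.1% of all genes. Col1a1, the main bone collagen chain, was at a mean log2 of 15.56 in osteoblast and 15.33 in endothelial arrays. After G-CSF all 7 were called higher in the osteoblast sort (17.9% of all genes). The osteoblast list mean of the endothelial arrays was 11.09 ± 1.44 (SD, n = 4) with G-CSF against 12.66 ± 0.73 (SD, n = 4) without it. Genes of neutrophils, which the CD45 gate should remove, had list means of 11.20 to 14.43 on every array, with untreated osteoblast replicate 2 at 14.43 against 11.20 and 11.67 for the other untreated osteoblast arrays. Untreated endothelial replicate 1 stood apart in skeletal muscle genes, at a list mean of 13.79. In RNA of sorted populations, fewer cells of a type and less RNA per cell cannot be told apart.

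Promoters of 8 of the 10 genes, all receptors and ligands but neither Hey1 nor Heyl, were in the RefSeq table for build GRCm38.p6, each running from 250 bases before to 50 after a transcript start. The 3 below are shown because Notch4 and Dll4 had large differences towards the endothelial sort and Notch2 was the 1 called gene with its difference the other way; they are written 5′ to 3′ on the strand of the gene, with CpG dinucleotides in capitals. They lie at chr17:34564045-34564344 (Notch4, plus strand), chr2:119325534-119325833 (Dll4, plus strand) and chr3:98013288-98013587 (Notch2, plus strand).
Notch4: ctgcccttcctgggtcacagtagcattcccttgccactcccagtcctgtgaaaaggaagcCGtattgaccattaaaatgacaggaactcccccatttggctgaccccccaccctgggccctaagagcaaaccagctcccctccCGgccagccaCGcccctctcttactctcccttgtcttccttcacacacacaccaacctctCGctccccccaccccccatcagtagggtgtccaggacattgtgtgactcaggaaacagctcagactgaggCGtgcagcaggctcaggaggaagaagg
Dll4: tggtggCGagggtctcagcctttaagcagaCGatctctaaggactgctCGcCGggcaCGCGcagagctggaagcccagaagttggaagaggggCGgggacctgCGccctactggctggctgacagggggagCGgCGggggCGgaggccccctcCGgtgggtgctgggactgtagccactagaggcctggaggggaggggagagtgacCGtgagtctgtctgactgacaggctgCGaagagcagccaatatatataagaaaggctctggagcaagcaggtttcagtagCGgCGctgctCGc
Notch2: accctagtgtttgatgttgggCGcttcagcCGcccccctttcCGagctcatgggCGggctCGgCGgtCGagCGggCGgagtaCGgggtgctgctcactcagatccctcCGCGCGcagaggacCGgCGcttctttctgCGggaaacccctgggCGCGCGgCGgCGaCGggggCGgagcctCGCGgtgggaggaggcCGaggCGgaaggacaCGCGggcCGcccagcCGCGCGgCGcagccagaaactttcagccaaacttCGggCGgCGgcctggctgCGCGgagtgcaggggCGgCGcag
The Notch4 window holds 5 CpG, the Dll4 window 17 and the Notch2 window 41. The windows of the other genes hold 63 (Jag2), 25 (Notch3), 24 and 15 (Dll1), 23 (Notch1) and 22 (Jag1). Over all 32851 RefSeq promoters of this length the quartiles were 3, 7 and 20. The RBPJ core TGGGAA, searched on both strands, was in none of the 9 promoters of these 8 receptor and ligand genes (Dll1 has 2), and 25.56% of all promoters hold it. The Hes and Hey E box CACGTG, which reads the same on both strands, was also in none of the 9, against 7.15% of all promoters. Of the wider pathway only the promoters of Hey2 and Nrarp were searched. That of Hey2 held TGGGAA at -207 (reverse strand) and -3 (forward strand) from the start, and that of Nrarp CACGTG at -108.

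Between the untreated sorts, 5 of the 10 genes were lower in osteoblasts and 1 was higher (limma, Benjamini-Hochberg adjusted p under 0.05 over 12830 genes). The lower genes were Notch1, Notch4, Jag2, Dll1 and Dll4, at 4.58-fold to 11.1-fold, and the higher gene was Notch2, at 2.39-fold. Of all genes tested, 13.3% were lower and 14.1% higher by the same rule. For 6 of the 10 genes, the same 6, the arrays of the sorts did not overlap, as for 33.4% of all genes. After G-CSF the same 6 genes were called in the same directions: 1 higher in osteoblasts (17.9% of all genes) and 5 lower (15.1% of all genes), and 6 had groups that did not overlap (40.3% of all genes). The median difference over the 10 genes was -1.46 log2 without and -1.62 with G-CSF, and over all genes it was -0.01 and 0.01. With each array centred on its median, the differences of all genes shifted by -0.23 log2 untreated and -0.39 after G-CSF, and the split of all called genes moved from 1807 higher and 1712 lower to 1225 and 2573 untreated, and from 2296 and 1937 to 1418 and 3958 after G-CSF; the 6 calls kept their directions. Levels below are scaled array intensities, 1 per probe set, and differences are on the scale of log2(intensity + 16), which understates changes of dim genes.

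**Figure D1:**
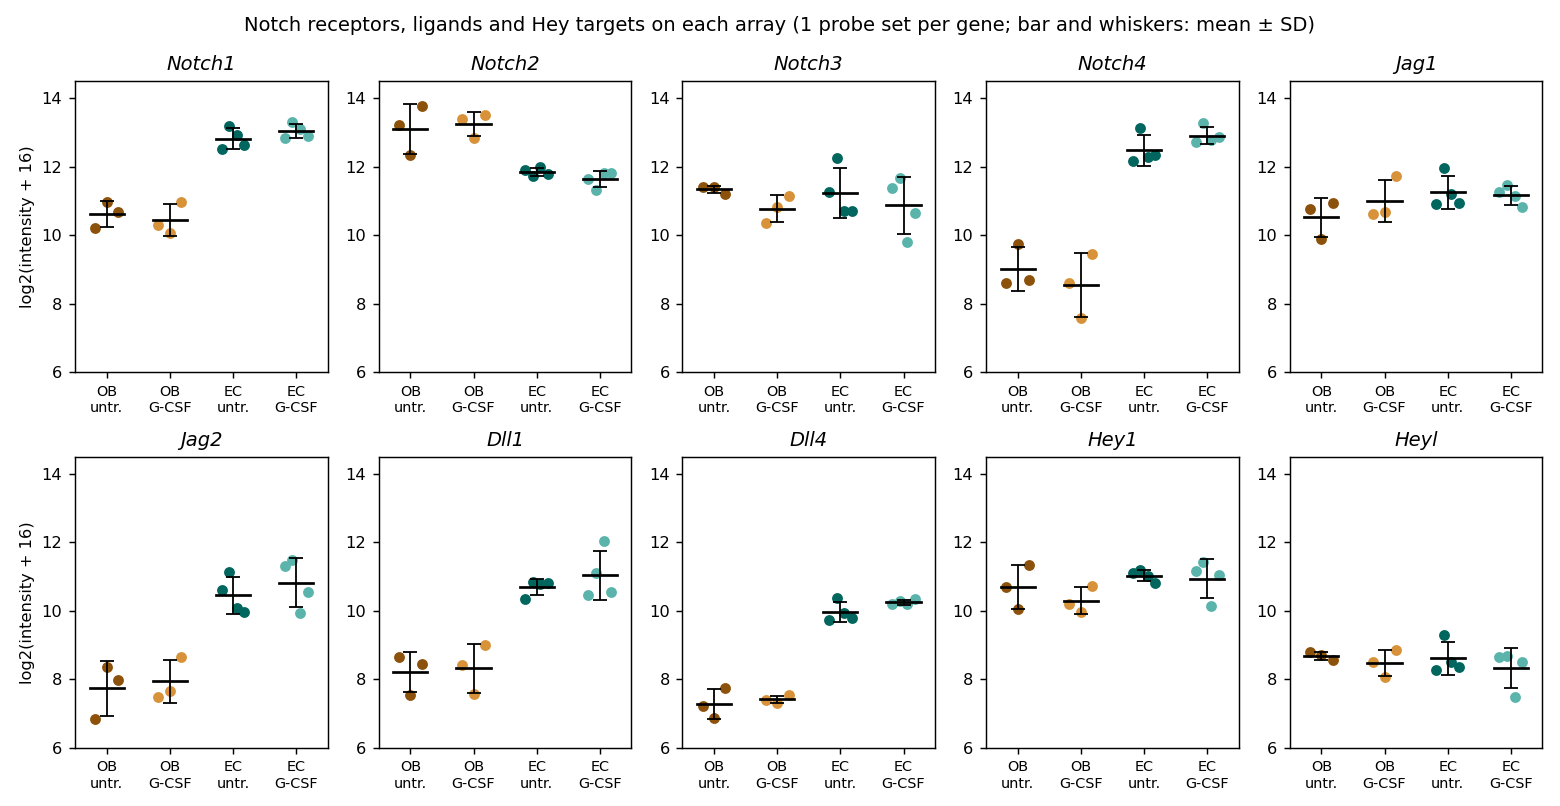
Log2(intensity + 16) of each of the 10 genes on every array, with 1 point per array, a bar for the group mean and whiskers for the SD, in osteoblast (OB, 3 and 3 arrays) and endothelial (EC, 4 and 4 arrays) sorts, untreated or with G-CSF. The points of the sorts are apart for Notch1, Notch2, Notch4, Jag2, Dll1 and Dll4 and overlap for Notch3, Jag1, Hey1 and Heyl.

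Of the receptors, Notch4 (Entrez 18132, chr17:34564286-34588543 in GRCm38.p6) had the largest difference of the 10 genes by the brightest probe set. Its intensity was 369, 836 and 396 in untreated osteoblasts and 372, 174 and 681 after G-CSF, and 4561, 8895, 4915 and 5158 in untreated endothelial cells and 6706, 9967, 6946 and 7424 after G-CSF. Every endothelial array was above every osteoblast array, the highest of which was untreated replicate 2, the array with high blood cell genes. On the log2 scale the means were 9.003 ± 0.64 (SD, n = 3) and 12.47 ± 0.44 (SD, n = 4) untreated, a difference of -3.47 ± 0.39 (SE; adjusted p = 1.21e-05), and the difference after G-CSF was -4.37 ± 0.39 (adjusted p = 9.81e-07, 20.7-fold). With the mean of the gene's probe sets in place of the brightest, the differences were -2.29 and -2.81, smaller than those of Jag2 by the same measure (-3.01 and -3.36).

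Notch1 (Entrez 18128, chr2:26457902-26503822), the receptor best known in endothelium and lymphocytes, read 1166, 1999 and 1608 in untreated osteoblasts and 1239, 1054 and 1970.3 with G-CSF. In endothelial cells it read 5814, 9321, 7785 and 6292 untreated and 7346, 10003, 8806 and 7560.1 with G-CSF. The lowest endothelial array was above the highest osteoblast array in both conditions. The untreated difference was -2.20 ± 0.25 log2 (SE; adjusted p = 1.32e-05) and that after G-CSF was -2.59 ± 0.25 (adjusted p = 1.85e-06, 6.04-fold).

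Notch2 (Entrez 18129, chr3:98013538-98150367), the receptor tied to bone mass, ran the other way. Osteoblast arrays read 9428, 5125 and 14018 untreated and 10662, 7325 and 11625 with G-CSF, and endothelial arrays 3832, 3343, 4027 and 3486 and 3155, 2522, 3584 and 3618. All osteoblast arrays lay above all endothelial arrays, and the lowest osteoblast array was again untreated replicate 2. The difference was 1.26 ± 0.28 log2 (SE; adjusted p = 0.00338) untreated and 1.60 ± 0.28 (adjusted p = 0.000427, 3.03-fold) after G-CSF. Without untreated osteoblast replicate 2 the untreated difference was 1.65 (adjusted p = 8.23e-05), and without untreated osteoblast replicate 3, the highest array, it was 0.92 (adjusted p = 0.0224).

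Notch3 (Entrez 18131, chr17:32120820-32166896), the mural cell receptor, read 2668, 2685 and 2353 in untreated osteoblasts and 1298, 1779 and 2245 with G-CSF. Endothelial arrays read 2414, 4849, 1661 and 1640.2 untreated and 2653, 3258, 883 and 1575 with G-CSF, so the untreated osteoblast arrays lie within the endothelial range. The difference between sorts was 0.11 ± 0.42 log2 (SE; adjusted p = 0.885; 95% confidence interval -0.79 to 1.00) untreated and -0.11 (adjusted p = 0.878) after G-CSF. The endothelial arrays differed among themselves, with an SD of 0.73 log2 untreated and 0.83 after G-CSF against 0.11 for the untreated osteoblasts.

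All 3 ligands other than Jag1 were lower in the osteoblast sort. Dll4 (Entrez 54485, chr2:119325784-119335666), the delta ligand of tip and arterial cells, read 133, 100.5 and 200.1 in untreated osteoblasts and 152, 144 and 169 with G-CSF. Endothelial arrays read 829, 1311, 964 and 875 untreated and 1151, 1242, 1152 and 1274 with G-CSF. The endothelial G-CSF arrays agreed closely, with an SD of 0.07 log2, and no array of the sorts overlapped. The differences were -2.68 ± 0.22 log2 (SE; adjusted p = 7.19e-07) untreated and -2.84 ± 0.22 (adjusted p = 2.85e-07, 7.15-fold) after G-CSF, the smallest adjusted p-values of the 10 genes in both contrasts.

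Jag2 (Entrez 16450, chr12:112907803-112929812), a jagged ligand, read 98.2, 315 and 239 in untreated osteoblasts and 163, 187 and 388 with G-CSF. Its endothelial values were 1549, 2238, 1067 and 987 untreated and 2528, 2877, 957 and 1486 with G-CSF. Endothelial replicates 1 and 2 were above replicates 3 and 4 in both conditions, and all were above every osteoblast array. The untreated difference was -2.72 ± 0.45 log2 (SE; 6.58-fold; adjusted p = 0.000358) and that after G-CSF -2.89 (7.39-fold; adjusted p = 0.000162).

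Dll1 (Entrez 13388, chr17:15367354-15376932), the delta ligand that acts in lymphocyte and muscle development, read 386, 169 and 335 in untreated osteoblasts and 326, 173 and 491 with G-CSF. Endothelial values were 1275, 1804, 1732 and 1795 untreated and 1397, 2182, 4179.6 and 1475 with G-CSF. One array, endothelial G-CSF replicate 3, stood far above the rest, and every endothelial array was above every osteoblast array. The difference was -2.48 ± 0.40 log2 (SE; 5.56-fold; adjusted p = 0.000293) untreated and -2.71 (6.55-fold; adjusted p = 9.88e-05) after G-CSF.

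Jag1 (Entrez 16449, chr2:137081451-137116520), the ligand expressed by osteoblast lineage cells and by endothelium, did not separate the sorts by its brightest probe set. Osteoblast arrays read 1713, 922 and 1957 untreated and 1559, 1607 and 3349 with G-CSF, and endothelial arrays 1892, 3932, 2328 and 1959.5 and 2414, 2814, 2226 and 1783. Untreated osteoblast replicate 3 lay among the endothelial arrays, and the highest osteoblast array, G-CSF replicate 3, was above all endothelial G-CSF arrays. The untreated difference was -0.72 ± 0.33 log2 (SE; adjusted p = 0.127; interval -1.43 to -0.01), and after G-CSF it was -0.16 (adjusted p = 0.753). With every array centred on its median the untreated difference was -0.95 and passed the threshold (adjusted p = 0.0329).

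Neither target gene passed the threshold between the sorts. Hey1 (Entrez 15213, chr3:8663359-8667038), a repressor induced by Notch and also by BMP signals in bone, read 1641, 1039 and 2553 in untreated osteoblasts and 1161, 975 and 1684 with G-CSF. Endothelial arrays read 2166, 2301, 2044 and 1784 untreated and 2255, 2759, 1115 and 2081 with G-CSF, and G-CSF replicate 3 was low among them. The difference was -0.33 ± 0.32 log2 (SE; adjusted p = 0.487; interval -1.02 to 0.35) untreated and -0.65 ± 0.32 (adjusted p = 0.141; interval -1.33 to 0.04) after G-CSF. Without endothelial G-CSF replicate 3 the latter was -0.91 and passed the threshold (adjusted p = 0.0285), as it did with arrays centred on their medians, at -1.03 (adjusted p = 0.0179).

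Heyl (Entrez 56198, chr4:123233556-123249870), the Hey relative known from smooth muscle, read 426, 400.0 and 364 in untreated osteoblasts and 346, 253 and 447 with G-CSF. Endothelial arrays read 293, 612, 344 and 315 untreated and 385, 397, 162 and 349.7 with G-CSF, and the sorts overlapped in both conditions. The difference was 0.08 ± 0.32 log2 (SE; adjusted p = 0.889; interval -0.60 to 0.76) untreated and 0.15 (adjusted p = 0.773) after G-CSF.

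**Figure D2:**
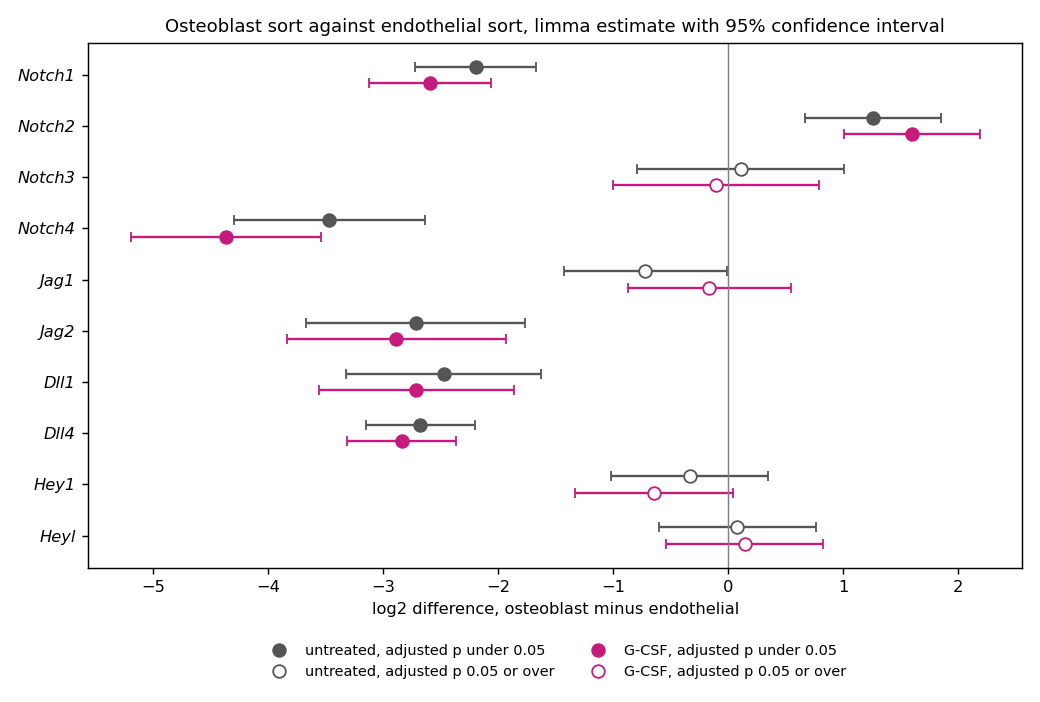
Difference between osteoblast and endothelial sorts for each of the 10 genes, in log2 units with negative values for lower in osteoblasts, untreated (grey) and after G-CSF (pink). Points are limma estimates, lines are 95% confidence intervals, and filled points have an adjusted p under 0.05. The filled points of 5 genes lie left of 0 and those of Notch2 right of it in both conditions.

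By the brightest probe set, the order of the 4 group means was the same for Notch4 and Notch1: endothelial with G-CSF, endothelial untreated, osteoblast untreated, osteoblast with G-CSF. Jag2, Dll1 and Dll4 had the endothelial groups in that order and the osteoblast groups in the reverse one, and Notch2 had osteoblasts with G-CSF highest and endothelial cells with G-CSF lowest. For these 5 genes and for Notch2, the step between sorts passed the test and the steps within a sort did not.

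Most genes had more than 1 probe set, and 18 of the 21 probe sets passed the filter on dim signal, with all 10 genes represented. The second probe sets of Notch1 (-1.50 log2, adjusted p = 0.000809 over 23296 probe sets), Notch4 (-1.12, adjusted p = 0.00803), Jag2 (-3.30) and Dll4 (-2.07) were called in the same direction between the untreated sorts. They were also called after G-CSF, at -1.72, -1.25, -3.83 and -2.68. Their changes with G-CSF in osteoblasts, none called, were opposite in sign to the brightest probe set for Notch4 (0.17), Jag2 (-0.09) and Dll4 (-0.42). For Notch1 the sign was the same (-0.16). In endothelial cells all had the sign of the brightest probe set, at 0.06 (Notch1), 0.29 (Notch4), 0.45 (Jag2) and 0.20 (Dll4). The second probe sets of Notch3 (0.32) and Heyl (-0.24) were not called, like those that stand for the genes. The 2 other Jag1 probe sets disagreed in sign, at 0.32 and -0.72 untreated, and neither was called. For the one at -0.72 the untreated sorts did not overlap, with intensities of 51 to 149 in osteoblasts and 159 to 187 in endothelial cells. The 3 probe sets under the filter, 1 each of Notch2, Notch4 and Heyl, had group means of 4.71 to 6.18 log2 and were not tested.

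The genes whose profile over the 14 arrays was most like that of a called gene were found by the root mean square distance between gene-centred log2 values. They were Lrrc8c (0.19) and Fzd4 (0.19) for Notch1, Hspa13 (0.23) and N4bp2 (0.23) for Notch2, and Kank3 (0.36) and Ablim1 (0.39) for Notch4. For the ligands they were Chrnb1 (0.33) and Pdlim1 (0.37) for Jag2, Ldb2 (0.35) and Zbtb46 (0.40) for Dll1, and Efna1 (0.26) and Jcad (0.27) for Dll4. Fzd4 encodes a Frizzled receptor of retinal vessels and Efna1 an ephrin ligand.

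The rest of the pathway was read from a list of 45 other genes, of which 38 were measured. In the untreated contrast 4 of the 38 were called higher and 6 called lower in osteoblasts (14.1% and 13.3% of all genes). The median difference of the list was 0.08 log2. After G-CSF the counts were again 4 and 6 (17.9% and 15.1% of all genes), with a median of 0.01. In the untreated contrast the largest difference was in Nrarp, a Notch target that feeds back on the pathway: its log2 level was 8.04 to 8.58 in untreated osteoblasts and 12.13 to 12.83 in untreated endothelial cells, a 15.99-fold difference (-3.999 ± 0.21 SE, adjusted p = 1.93e-08). After G-CSF Nrarp differed 9.43-fold (-3.24, adjusted p = 6.04e-08), with osteoblast arrays at 8.54 to 9.03 and endothelial arrays at 11.83 to 12.12. Hes1 and Hey2, the other targets always described, were not called: Hes1 differed by -0.68 untreated (adjusted p = 0.0754, groups apart) and -0.41 after G-CSF (adjusted p = 0.272), and Hey2 by 0.24 (adjusted p = 0.774) and 1.03 (adjusted p = 0.129). Hes1 passed the threshold in the untreated contrast with median centring (-0.91, adjusted p = 0.0175), with a batch term for how many decimals a column carries (-0.99, adjusted p = 0.0319), with the actin ratio as a covariate (-0.89, adjusted p = 0.00731), without osteoblast untreated replicate 3 (-0.88, adjusted p = 0.0468) and without osteoblast G-CSF replicate 1 (-0.68, adjusted p = 0.0448). After G-CSF it passed with median centring (-0.79), with the osteoblast columns of 1 decimal (-0.97) and with the actin ratio (-0.76), at adjusted p = 0.0235 to 0.0373. The actin ratio is the signal of the 3′ over the 5′ actin control probe set, a measure of RNA quality. Hey2 passed after G-CSF when only the arrays compared were fitted (adjusted p = 0.0362). Of the 4 target genes of this list that were measured, Nrarp was the 1 that was called.

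Rbpj, the DNA-binding partner of every Notch intracellular domain, was higher in osteoblasts, with means of 11.46 ± 0.36 (SD, n = 3) and 10.42 ± 0.16 (SD, n = 4) log2 untreated, a difference of 1.04 ± 0.19 (SE; adjusted p = 0.000811). After G-CSF the difference was 0.87 (adjusted p = 0.00241), and with arrays centred on their medians it was 0.48 and missed the threshold (adjusted p = 0.0505). Dner, which encodes a delta-like protein with EGF repeats, was the gene of the list with the largest difference towards osteoblasts. It was at 9.95 to 10.54 log2 in untreated osteoblasts and 6.13 to 6.74 in untreated endothelial cells, a 14.1-fold difference (3.82 ± 0.33 SE, adjusted p = 1.06e-06), and was also called after G-CSF (adjusted p = 4.95e-08), at 10.24 to 11.73 and 5.47 to 6.04. No fold is given for the latter, since the endothelial mean of 5.85 lies under the level of the dim filter, 6.01.

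Among modifiers, Mfng, a fringe enzyme that adds sugar to Notch and shifts its choice of ligand, was lower in osteoblasts at 5.65-fold (-2.50, adjusted p = 1.38e-05), whereas the related Lfng differed by -0.11 (adjusted p = 0.783). After G-CSF the values were -2.55 (adjusted p = 7.55e-06) for Mfng and -0.60 (adjusted p = 0.0735) for Lfng; Lfng passed the threshold there with median centring (-0.99, adjusted p = 0.00417), with quantile normalisation (-0.94, adjusted p = 0.00635) and without osteoblast G-CSF replicate 3 (-0.78, adjusted p = 0.0413). Neurl1b, a ubiquitin ligase of the Neuralized family that acts on ligand uptake, was lower at 5.71-fold (-2.51, adjusted p = 0.000204) and 7.94-fold after G-CSF (-2.99, adjusted p = 3.08e-05). Of 8 measured genes of receptor cleavage, 2 were called in each contrast, both lower in osteoblasts (13.3% of all genes untreated and 15.1% after G-CSF). Of 5 measured nuclear complex genes Rbpj alone was called, as higher (14.1% and 17.9% of all genes). Without endothelial untreated replicate 4, 6 genes of the list were called in the untreated contrast in place of 10.

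**Figure D3:**
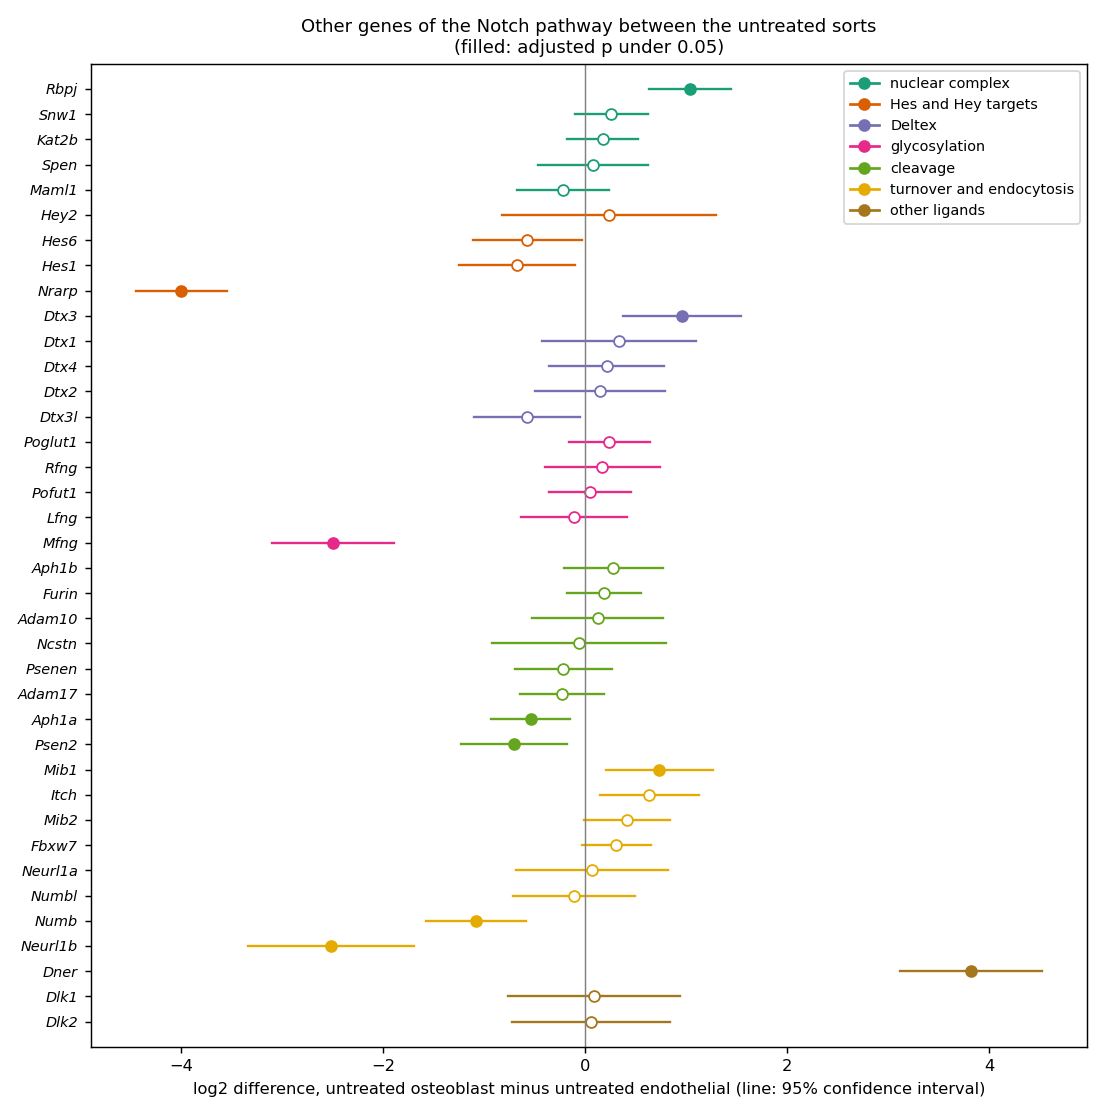
Difference between untreated osteoblast and untreated endothelial sorts for 38 other genes of the Notch pathway, coloured by role, in log2 units with 95% confidence intervals; filled points have an adjusted p under 0.05. Nrarp, Neurl1b and Mfng lie far to the left (lower in osteoblasts) and Dner far to the right.

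A second list, of genes that mark arterial endothelium, had 12 of 13 genes measured. In untreated osteoblasts 8 were called lower and 1 called higher (13.3% and 14.1% of all genes), with a median of -2.46 log2. Sox17, a transcription factor of arterial endothelium, was 14.2-fold lower (-3.83, adjusted p = 2.5e-07), and Sox18, Acvrl1 and Sema3g were lower by 10.5-fold, 9.96-fold and 9.50-fold. The gene that was called higher was Alpl, which is also the alkaline phosphatase of osteoblasts (2.26, adjusted p = 0.000265). After G-CSF the counts were the same (15.1% of all genes lower and 17.9% higher), and the median was -1.88.

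G-CSF changed none of the 10 genes at the threshold in either sort. In osteoblasts 0 of 10 were higher and 0 lower (0.164% and 0.0390% of all genes), and 0 of 10 had an unadjusted p under 0.05 in limma, as did 1143 of the 12830 genes. In endothelial cells the counts were also 0 and 0 (0.483% and 1.19% of all genes), with 0 of 10 at an unadjusted p under 0.05 against 1720 of all genes. Centring on the median moved the split of all calls there from 62 higher and 153 lower to 87 and 65. The lowest adjusted p was 0.787 for Jag1 in osteoblasts and 0.643 for Dll4 in endothelial cells. With the replicate number as a block within each cell type, 51 genes in place of 26 were called in osteoblasts and 660 in place of 215 in endothelial cells, and 0 of the 10 genes were among them.

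**Figure D4:**
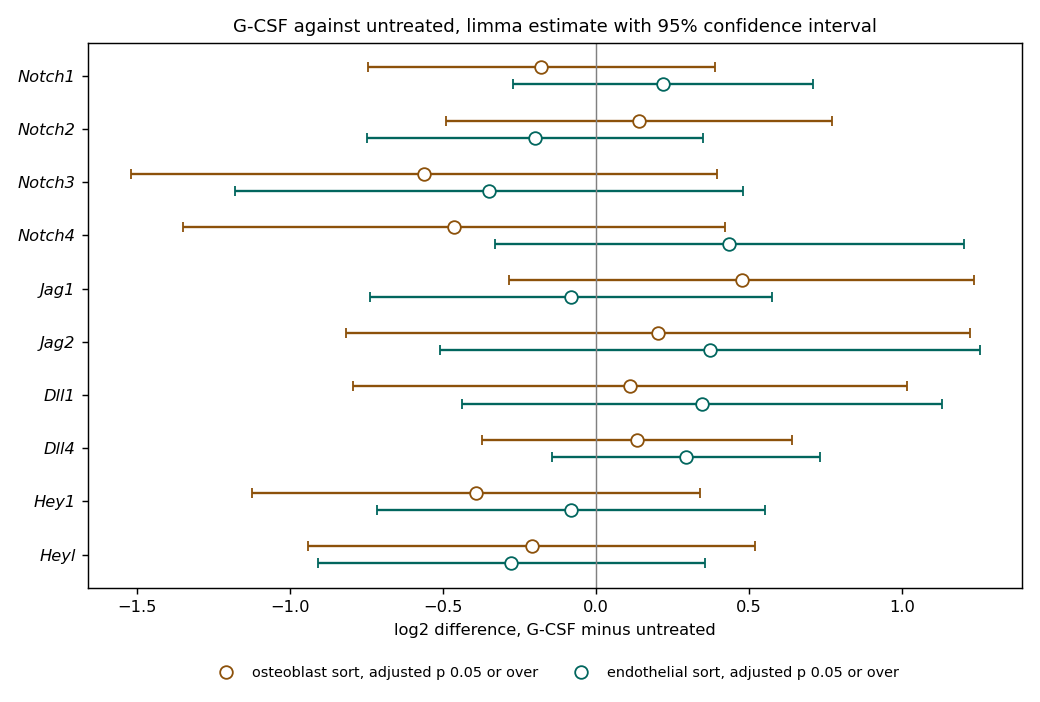
Change with G-CSF in the osteoblast sort (brown) and the endothelial sort (green) for each of the 10 genes, in log2 units; points are limma estimates and lines are 95% confidence intervals. All 20 points are open (adjusted p 0.05 or over), and each line crosses 0.

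Among the receptors in osteoblasts, the highest G-CSF array for Notch3 (2245) was below the lowest untreated array (2353). It was the 1 of 10 genes whose groups did not overlap (9.21% of all genes), and its fitted change was -0.56 ± 0.45 log2 (SE; adjusted p = 0.806; interval -1.52 to 0.40). Notch4 had a change of -0.47 (interval -1.35 to 0.42), and Notch1 and Notch2 had changes of -0.18 and 0.14. For the ligands the changes were 0.48 for Jag1 (interval -0.28 to 1.23), 0.20 for Jag2, 0.11 for Dll1 and 0.13 for Dll4. Hey1 had a change of -0.39 (interval -1.12 to 0.34) and was lower with G-CSF in 3 of 3 same-numbered pairs, as was Notch3. Marker lists of blood cells also had different means, with 0 of their 9, 4 and 5 measured genes called: values untreated and with G-CSF were 12.43 ± 1.74 and 13.93 ± 0.47 (SD, n = 3) for neutrophil genes, 9.46 ± 1.52 and 7.32 ± 0.79 for erythroid genes and 7.72 ± 1.74 and 6.37 ± 0.30 for the B lineage. Their part in these values was not tested.

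In the endothelial sort 0 of 10 genes had groups that did not overlap (10.6% of all genes); of the other probe sets, 1 of Jag1 had all G-CSF arrays below all untreated ones (-0.55 log2, adjusted p = 0.551). The changes of the 5 genes that were higher in this sort were all above 0: 0.43 for Notch4 (interval -0.33 to 1.20), 0.37 for Jag2 (-0.51 to 1.25), 0.35 for Dll1 (-0.44 to 1.13), 0.29 for Dll4 (-0.14 to 0.73) and 0.22 for Notch1 (-0.27 to 0.71). Without endothelial G-CSF replicate 3 the Dll1 value was 0.014. Notch1 and Notch4 were higher with G-CSF in 4 of 4 same-numbered pairs, by 0.10 to 0.34 and 0.16 to 0.55 log2. The other 5 had changes of -0.35 (Notch3), -0.28 (Heyl), -0.20 (Notch2), -0.08 (Jag1) and -0.08 (Hey1). Over the same arrays the mean of the osteoblast marker list was 12.66 untreated and 11.09 with G-CSF, with 1 of 7 measured genes, Alpl, called lower (-1.59, adjusted p = 0.0316). Means were 10.01 and 7.74 for erythroid genes (1 of 4 called lower, Klf1, at -2.95 and adjusted p = 0.0404), 8.53 and 6.94 for B lineage genes (0 of 5), and 9.77 and 8.10 for skeletal muscle genes (0 of 8), where endothelial untreated replicate 1 was at 13.79. The endothelial marker list had means of 12.69 untreated and 12.68 with G-CSF (0 of 10 called), and neutrophil genes 13.30 and 13.89 (0 of 9). The part of these lists in the values was not tested. The Alpl call was lost without any 1 of 5 endothelial arrays, which were replicates 1, 3 and 4 of the untreated group and 2 and 3 of the G-CSF group (adjusted p = 0.0721 to 0.113).

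In the wider list 0 of 38 genes were called with G-CSF in either sort. Nrarp, which was at 12.13 to 12.83 log2 in untreated endothelial cells, was at 11.83 to 12.12 after G-CSF, so the groups did not overlap, with a change of -0.37 ± 0.19 (SE; adjusted p = 0.464). In osteoblasts its change was 0.40 (adjusted p = 0.668). The change in osteoblasts minus that in endothelial cells was 0.76 (interval 0.13 to 1.40; adjusted p = 0.955). Dner had a change of 1.05 in osteoblasts (interval 0.30 to 1.81; adjusted p = 0.321).

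The change with G-CSF was also compared between the sorts. The difference of the changes, osteoblast minus endothelial, ran from -0.90 for Notch4 (interval -2.07 to 0.27) to 0.56 for Jag1 (interval -0.45 to 1.56), and 0 of 10 genes were called. Of all genes 0% were called in limma at an adjusted p under 0.05, and 581 genes, 0 of the 10 among them, had an unadjusted p under 0.05. The paired fit within cell types called 1 gene, which was none of the 10.

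Notch3 was higher in replicates 1 and 2 than in 3 and 4 of the endothelial sort, and so were mural genes. Mean log2 levels of 10 mural genes in endothelial replicates 1 to 4 were 10.72, 11.14, 10.09 and 10.03 untreated, and 10.60, 10.75, 9.57 and 9.67 with G-CSF. Notch3 read 2414 and 4849 untreated and 2653 and 3258 with G-CSF in replicates 1 and 2, against 883 to 1661 in replicates 3 and 4. Heyl shared the extremes, with its highest array in untreated replicate 2 (612) and its lowest in G-CSF replicate 3 (162), but was low in untreated replicate 1 (293). The pattern was not particular to mural genes. The arterial list had the same extremes, at 11.83 in untreated replicate 2 and 10.99 in G-CSF replicate 3. Within each condition its replicates 1 and 2 were above 3 and 4. The endothelial marker list was also highest in untreated replicate 2 (13.02), but was lowest in G-CSF replicate 4 (12.52). The mural list was lower in the osteoblast sort, at 8.99 to 9.11 on the untreated arrays, with 3 of 10 genes called lower (13.3% of all genes). Among them were Myh11 (-3.27, adjusted p = 0.0109) and Rgs5 (-2.05, adjusted p = 0.00812), while Acta2 differed by -0.999 (adjusted p = 0.125). After G-CSF 2 of the 10 were called lower and 1 higher (15.1% and 17.9% of all genes). The list means then overlapped, at 8.88 to 9.76 in osteoblast and 9.57 to 10.75 in endothelial arrays. Cspg4 had the higher mean in osteoblasts, at 10.15 against 9.89 log2 untreated and 10.67 against 9.07 with G-CSF. The part of mural cell RNA in the Notch3 and Heyl values was not tested.

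**Figure D5:**
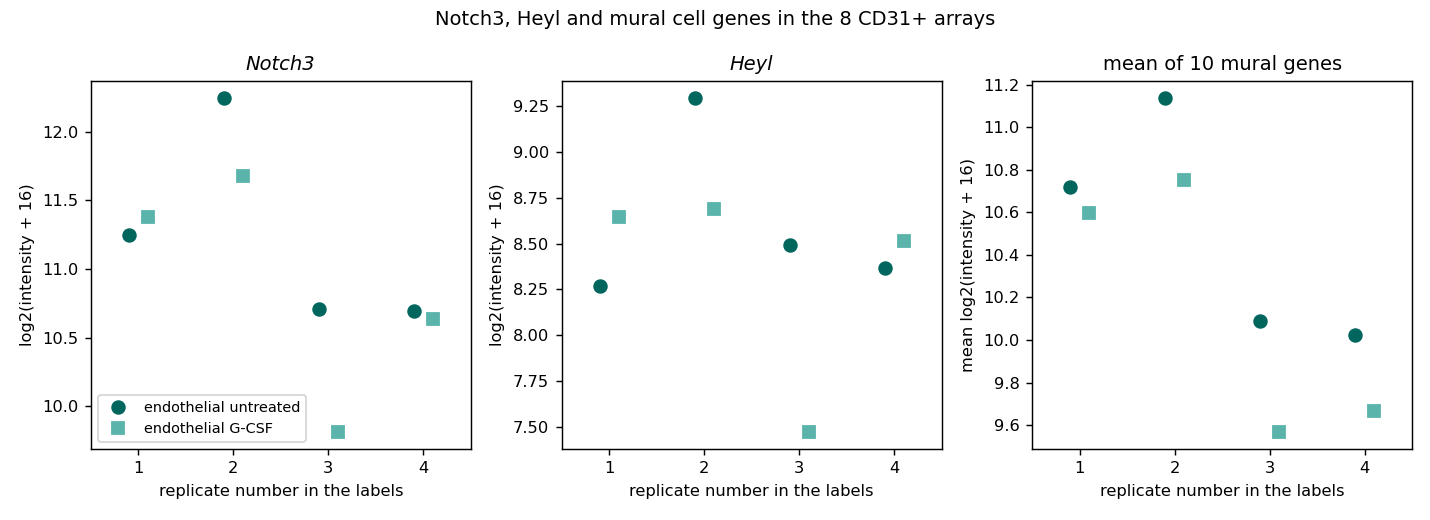
Notch3, Heyl and the mean of 10 mural cell genes, as log2(intensity + 16), on the 8 endothelial arrays by replicate number, with circles for untreated and squares for G-CSF. Untreated replicate 2 is the highest and G-CSF replicate 3 the lowest array in all 3 panels.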

How the data were processed

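Total RNA of the sorted cells (100 ng) was turned into biotinylated cRNA and put on 1 array per sample, per the labels. The deposited table gives 1 intensity per probe set on a linear scale, written by the authors from Affymetrix Expression Console 1.1 according to the submitters' processing notes; the summarising algorithm is not given in the sources used here. Trimmed means of 500.003 to 500.004 on all arrays show scaling to a common level, so the values were not normalised again. Symbols come from the platform annotation and positions from RefSeq (GRCm38.p6).

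Here log2(intensity + 16) was computed. Of 45101 probe sets, 64 controls, 932 with several symbols and 9160 with none were left out, the dimmest 33.3% of the remaining 34945 (mean log2 under 6.01) were dropped, and each gene was read from its brightest probe set, for 12830 genes. A model with 4 group means was fitted in limma 3.58.1 (R 4.3.3) with a variance trend, 2-sided, with Benjamini-Hochberg adjustment over all genes, a threshold of 0.05 and 95% confidence intervals. The procedure was tested on simulated data. The number of arrays limits the precision.

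Named genes are the 10 members, up to 4 called genes with the largest change per list and contrast, Rbpj, Hes1, Hey2, Nrarp and Lfng, the 2 nearest profiles of each called member, and fixed markers. The members and lists were chosen with earlier results of these data known. Replicate numbers come from the titles, which do not say what they mark. Deviations from the group means correlated between same-numbered untreated and G-CSF arrays by 0.235, 0.300 and 0.336 in osteoblasts and 0.251, 0.400, 0.291 and 0.110 in endothelial cells. Between differently numbered arrays the correlations were -0.295 to 0.016 and -0.298 to 0.198. The highest, untreated endothelial replicate 1 with G-CSF replicate 4, was above the same-numbered value of replicate 4. Deviations sum to 0 within each group, so positive same-numbered correlations push the others below 0 by construction, which widens the gap. The numbers were taken to pair arrays within a cell type, and the paired fit was an alternative. The others were the pseudocount, scaling, filter, choice of probe set, arrays used, variance model, batch and RNA quality terms, a stricter threshold and each array left out. Osteoblast replicates 2 and 3 were printed with 7 decimals and all other columns with 1. The actin ratio of 3′ to 5′ signal was 3.83 to 11.03 in untreated osteoblast arrays and 2.71 to 10.49 with G-CSF. In endothelial arrays it was 3.01 to 6.57 untreated and 2.62 to 3.76 with G-CSF. Untreated osteoblast replicate 3, the array with the highest Notch2 value, had the ratio of 11.03.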

Additional observations from a re-analysis of the deposited data

Results flagged for a closer look

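Of the 20 gene and group combinations with 4 arrays, 2 had 1 array far from the other 3, where chance gives about 1 in 20. Dll1 was at 10.33 log2 (intensity 1275) in untreated endothelial replicate 1 and at 10.77 to 10.83 in the other untreated endothelial arrays, so its gap was 0.883 of the range. That array is also the one with high skeletal muscle genes. Heyl was at 7.47 log2 (intensity 162) in endothelial G-CSF replicate 3 and at 8.51 to 8.69 in the other endothelial G-CSF arrays, a gap of 0.857 of the range. The same array had the lowest mural list mean of the endothelial sort, 9.57. The cause of either value was not tested.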

How the results depend on the processing

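The 6 genes called between the sorts kept their direction and their side of the threshold under all 33 alternatives, the stricter threshold of 0.01 and each left-out array included, and 0 of the 10 genes was called for G-CSF under any. The highest adjusted p of these calls was 0.0224, for Notch2 without untreated osteoblast replicate 3. Of 1650 values of the 10 genes under alternatives, 3 newly passed the threshold: Jag1 untreated with median centring (-0.95), Hey1 after G-CSF with median centring (-1.03) and Hey1 without endothelial G-CSF replicate 3 (-0.91); the cause was not tested. The sign of values that were not called turned in 80 cases. Of 2300 values of 14 other named genes, 12 newly passed the threshold, 9 lost it and 0 reversed. With the replicate block within cell types, the G-CSF change of Notch4 in endothelial cells was 0.43 log2 (adjusted p = 0.612 in place of 0.721), and the block changed no call of the 10 genes; it could not be fitted for contrasts between sorts.

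Counts over all genes depend more on the setting. In osteoblasts 26 genes were called for G-CSF, with 2 when only the arrays compared were fitted, 3 from the columns with 7 decimals, 353 from those with 1 decimal, 187 with array weights, 15 with the block across cell types, 51 with the actin ratio, 8 at the threshold of 0.01, and 4 to 479 with 1 array left out. The highest was without untreated osteoblast replicate 2. In endothelial cells 215 became 105 with quantile normalisation, 468 with only the arrays compared, 507 with the block across cell types, 1058 with array weights, 122 with the actin ratio, 27 at 0.01, and 29 to 559 with 1 array left out. The difference of changes had 0 to 22. Between the sorts the threshold of 0.01 left 2108 of 3519 untreated and 2780 of 4233 after G-CSF. With untreated osteoblast replicate 2 and endothelial replicate 1 both left out, 428 genes were called in osteoblasts.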
